A study of Mus musculus with 6 samples.

Results

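Meiotic prophase in the testis is carried by a set of germ cell proteins that build the chromosome axis, cut the DNA, search for the homologous chromosome, join the homologues and turn a few of the cuts into crossovers. Here 34 such genes were followed in whole testes of mice treated with an inhibitor of the receptor kinase Ret or with vehicle. They were chosen by name for these roles, and 32 of them are among the 23361 genes of the deposited table; Rec114 and Rnf212 were not analysed here. All 32 passed the filter on low counts.

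All 6 mice were of the C57BL/6J strain, about 120 days old, and homozygous for Ret (V805A), a substitution in the kinase that makes it sensitive to the compound 1NaPP1-HCl. GDNF, the growth factor that maintains spermatogonial stem cells, signals through Ret. The 3 control mice received daily injections of vehicle (saline, cremophor and ethanol, 10 microliters per gram of body weight) for 9 days, and the 3 inhibitor mice the same vehicle with 1NaPP1-HCl. Both groups then went 5 days without injections, and testes were collected on day 14. No group carried unchanged Ret or received the compound without the substitution, which means that inhibition of Ret and any other action of the compound cannot be told apart here. Polyadenylated RNA of each whole testis was sequenced as one library per mouse.

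As background, meiotic recombination begins when SPO11 cuts both DNA strands on chromosome loops anchored to an axis of cohesin, SYCP2, SYCP3 and the HORMA domain proteins. The broken ends are coated by recombinases such as DMC1, which search for the homologue, and the synaptonemal complex then zips the axes together. In the mouse testis these genes are active mainly in spermatocytes from meiotic entry to pachytene, a population that is large in the adult organ, whereas the stem cells that depend on GDNF are rare.

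Libraries held 23144295 to 43127892 fragments assigned to genes. Ret RNA, the message of the targeted kinase, was at 2.17 ± 0.294 CPM (fragments scaled to library size and composition) under vehicle and 0.579 ± 0.0858 CPM under inhibitor (SD, n = 3 per group; edgeR adjusted p = 0.0199). Inhibitor mouse 3 stood apart from its group: its counts differed from those of inhibitor mice 1 and 2 with chi-square values of 11.54 and 12.46 per degree of freedom, against 4.087 to 5.832 for all other pairs within a group. Markers of late spermatocytes and spermatids were abundant, as the tissue label implies, and the 5 epididymal markers together reached 1.47 to 7.35 CPM, with the low value in inhibitor mouse 3. In whole testis, fewer cells of a type and less RNA per cell cannot be told apart.

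No gene of the set passed the test between inhibitor and control mice (0 of 32 at an adjusted p of 0.05, quasi-likelihood test of edgeR, Benjamini-Hochberg adjustment over the 16658 tested genes, of which 0.156% passed, 0.06% as higher and 0.096% as lower). The median log2 fold change, inhibitor over control, was 0.02 over the 32 genes, beside −0.0041 over all tested genes, with 20 genes at higher and 12 at lower estimates. Scaled by library totals alone, the set had 16 of each and a median of −0.0061, beside −0.035 for all tested genes. For 31 of the 32 genes the 95% interval of the fold change lay within 1.5-fold in either direction. The exception was Mei4, whose interval ran from −1.37 to 0.29 on the log2 scale and whose level rested on 6 to 29 fragments per library. At an unadjusted p of 0.05, 6 genes were past the threshold, all with higher estimates in inhibitor mice (Spo11, Hormad1, Sycp3, Psmc3ip, Ccdc36 and Dmc1). That is 18.8% of the set, beside 17.9% of all tested genes in either direction, 9.43% in the upward and 8.48% in the downward direction. DESeq2 called 1 gene of the set, Spo11, as higher (it called 4.38% of the genes with an adjusted p, 3.0% as higher). The limma-voom test and limma on log2 FPKM called none and also had 6 genes of the set past an unadjusted p of 0.05.

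**Figure D1:**
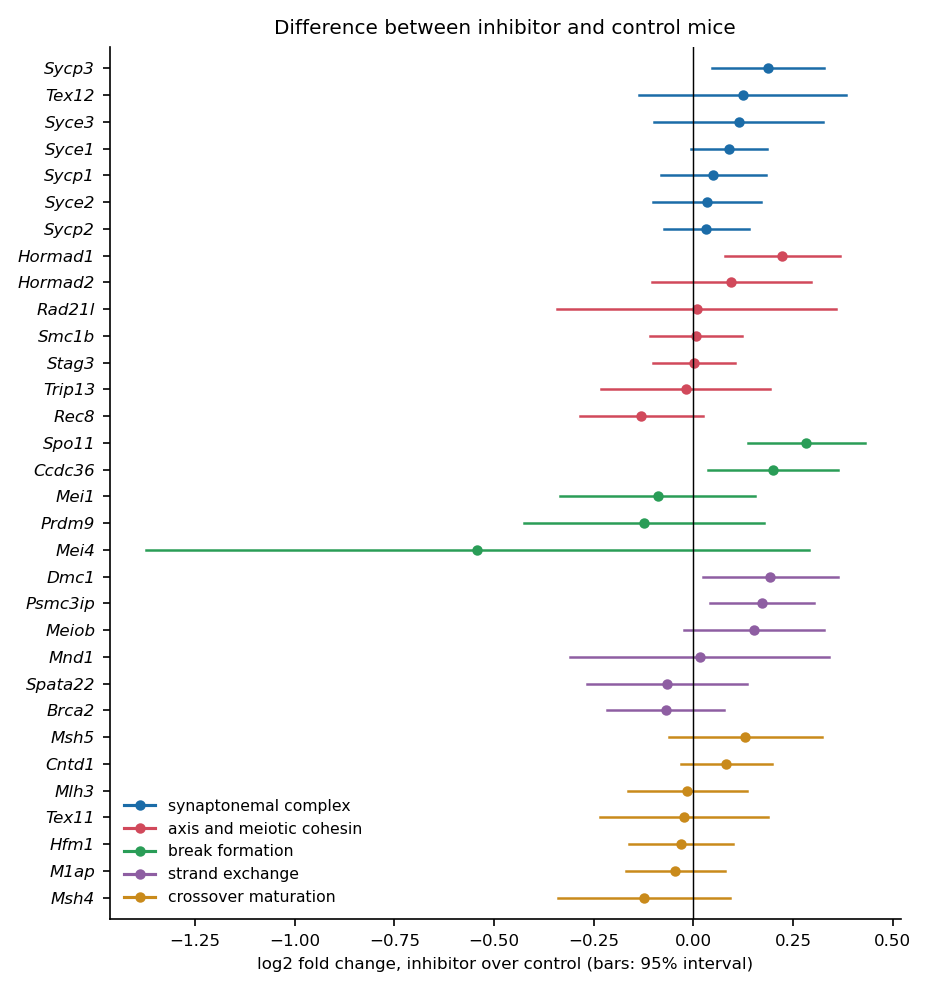
Log2 fold change, inhibitor over control, of each of the 32 genes (points) with its 95% interval from the edgeR fit (bars), coloured by role and ordered within each role. Intervals of 31 genes stay within 1.5-fold of no difference, and that of Mei4 is the widest.

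The genes differed far more from each other than between the groups. On the per-length scale (FPKM, the deposited fragments per kilobase of transcript and library size), mean levels over the 6 mice ran from 264 for Syce1 to 0.201 for Mei4. The 6 genes above 100 FPKM were 4 of the synaptonemal complex (Syce1, Syce2, Sycp3 and Syce3), Psmc3ip of strand exchange and the cohesin gene Stag3. At the other end 14 genes were below 10 FPKM, among them 4 of the 5 break formation genes and 4 of the 7 crossover genes. The median gene of the set, at 16.1 FPKM, stood above the median of all tested genes, 6.27 FPKM.

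**Figure D2:**
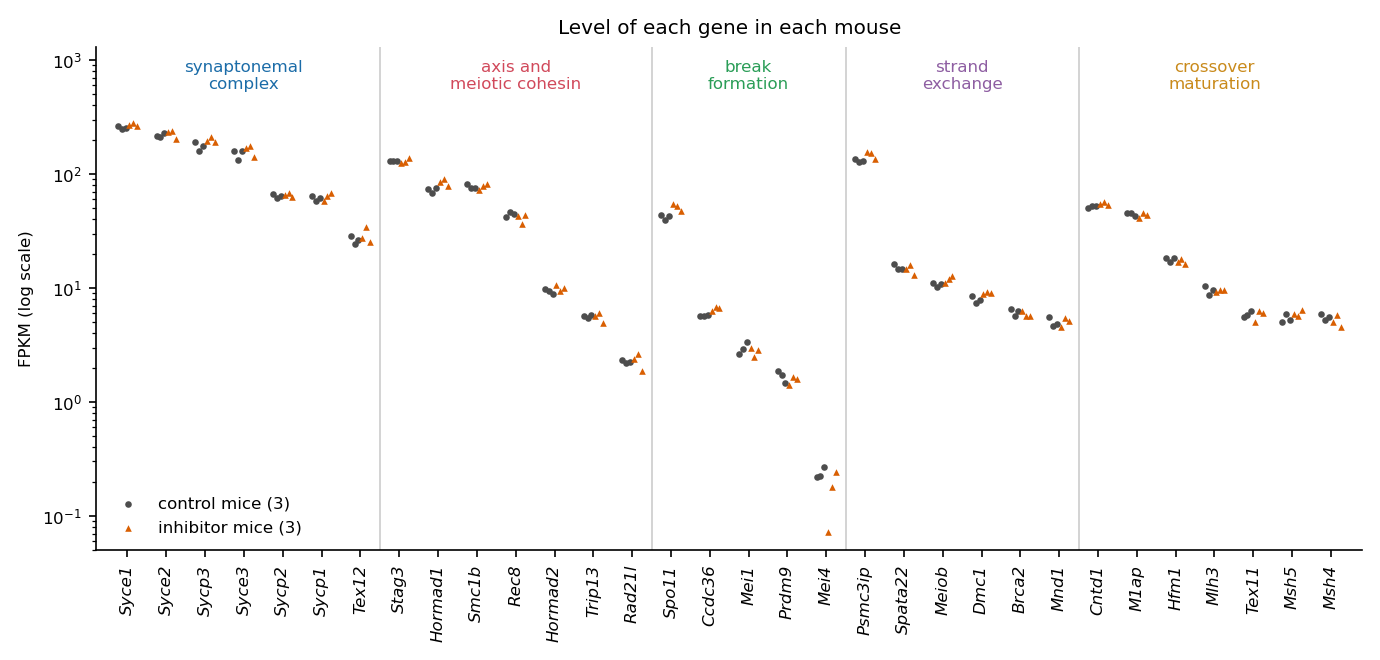
FPKM of each gene on a log axis, in the 3 control mice (circles) and the 3 inhibitor mice (triangles), grouped by role and ordered by mean level. Levels span 264 FPKM for Syce1 to 0.201 FPKM for Mei4, and the widest scatter between mice is that of Mei4.

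The synaptonemal complex consists of transverse filaments of SYCP1, a central element of SYCE1, SYCE2, SYCE3 and TEX12, and lateral elements that contain SYCP2 and SYCP3. All 7 of these genes had positive estimates (median log2 fold change 0.09, range 0.03 to 0.19) and none passed, with adjusted p from 0.161 to 0.822 by the edgeR test. After a correction that takes out how counts in each library trend with the length and GC content of transcripts, 1 of the 7 had a positive estimate and the median was −0.04. The transcripts of this group have a median GC content of 36.4% and a median length of 1460 bases, beside 49.6% and 3167 bases for all tested genes. Syce1, Syce2 and Syce3 have GC contents of 49.5%, 49.3% and 52.9%. Their corrected estimates were 0.005, −0.036 and −0.042.

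To show the sequence next to these genes, the DNA upstream of their start was read from RefSeq (GRCm38.p6), which has a promoter entry for 29 of the 32 genes and none for Spo11, Meiob or Tex11. In the 250 bases before the first start listed there, 4 sets of letters were searched on both strands: TTCCCGC, the core of E2F sites; CACGTG, the E-box bound by MGA and MAX; CNCCTCAG, known for STRA8 and MEIOSIN, the factors of meiotic entry; and TAACGG, a form of the MYB site. E2F6 and MGA belong to a complex known to keep germline genes silent in other tissues. The E2F letters were in 6 of 29 windows (20.69%, beside 4.95% of 17492 protein-coding genes) and the E-box in 6 of 29 (20.69% beside 6.64%). The STRA8 and MEIOSIN letters were in 4 (13.79% beside 6.69%) and the MYB letters in 1 (3.45% beside 2.29%), and matches to different sets did not overlap. The windows of Stag3, Prdm9, Mei1, Msh4 and Hfm1 lie wholly inside the gene as GENCODE M21 draws it, and some others partly. Counted matches of Stag3 and Cntd1 (E-box), Msh5 (E2F, STRA8 and MEIOSIN) and Hfm1 (STRA8 and MEIOSIN) reach into such bases. The windows of the set held a median of 12 CG pairs, beside 10 for protein-coding genes, and the E2F and E-box letters contain CG. Both E2F and E-box letters stood upstream of 3 genes, Sycp3, Tex12 and Hormad1. These are shown with Syce1, the gene of the set with the highest FPKM, whose window held none of the 4 sets of letters. The genes were chosen for display after the matches were seen, and a match does not show that a factor binds. Each is written 5′ to 3′ on the strand of its gene, ends at or just before the start of the gene in GENCODE M21, and has E2F (here GCGGGAA, the reverse complement) and E-box letters in capitals. They lie at chr10:88459337-88459568 (Sycp3, forward strand), chr9:50561326-50561518 (Tex12, reverse), chr3:95559427-95559676 (Hormad1, forward) and chr7:140787855-140788104 (Syce1, reverse).
Sycp3: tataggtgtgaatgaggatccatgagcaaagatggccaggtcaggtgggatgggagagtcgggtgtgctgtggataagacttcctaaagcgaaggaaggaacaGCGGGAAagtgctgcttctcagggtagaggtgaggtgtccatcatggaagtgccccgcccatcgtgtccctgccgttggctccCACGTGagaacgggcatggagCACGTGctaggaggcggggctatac
Tex12: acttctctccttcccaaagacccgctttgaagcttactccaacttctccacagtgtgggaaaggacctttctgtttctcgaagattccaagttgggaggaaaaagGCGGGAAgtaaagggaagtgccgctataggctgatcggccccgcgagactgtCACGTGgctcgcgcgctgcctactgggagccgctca
Hormad1: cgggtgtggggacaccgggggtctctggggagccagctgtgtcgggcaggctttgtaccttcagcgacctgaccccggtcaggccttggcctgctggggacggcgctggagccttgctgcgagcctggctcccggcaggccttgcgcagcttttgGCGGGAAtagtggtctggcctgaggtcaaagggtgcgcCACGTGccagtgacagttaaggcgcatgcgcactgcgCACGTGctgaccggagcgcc
Syce1: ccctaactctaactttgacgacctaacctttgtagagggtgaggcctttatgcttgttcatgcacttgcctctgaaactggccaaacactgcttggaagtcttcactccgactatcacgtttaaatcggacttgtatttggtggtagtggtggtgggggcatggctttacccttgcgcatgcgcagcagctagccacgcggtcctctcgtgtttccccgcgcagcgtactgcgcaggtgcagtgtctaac

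Syce1, for a central element protein, is a reverse-strand gene of chromosome 7 (140777229 to 140787852, GRCm38, GENCODE M21). Its level was 337, 320 and 327 CPM in vehicle mice 1 to 3 and 349, 359 and 339 CPM in inhibitor mice 1 to 3. The groups did not overlap, but the distance was small, at 0.09 ± 0.044 on the log2 scale (fold change ± SE, edgeR adjusted p = 0.309). Sycp3, for the lateral element protein that coats each axis, was at 177, 151 and 164 CPM under vehicle and at 183, 199 and 178 CPM under inhibitor. The highest control and the lowest inhibitor mouse nearly met, and the estimate of 0.19 (SE 0.064) did not pass (edgeR adjusted p = 0.161). The corrected value of Sycp3 was −0.046, so its direction turned. Up to 420 bases of a Sycp3 exon are shared with Chpt1 on the opposite strand, which stood at 126 CPM, and the strand setting of the counting is not given in the sources used here. The other 5 genes had overlapping groups: Sycp1, the filament protein that spans the complex, was at 202 ± 9.29 and 209 ± 16.3 CPM under vehicle and inhibitor, and Sycp2 at 359 ± 13.6 and 367 ± 17.6 CPM (SD, n = 3 per group). Syce2, Syce3 and Tex12 had log2 fold changes of 0.03, 0.11 and 0.12.

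The axis genes hold the meiotic cohesin subunits REC8, RAD21L, SMC1B and STAG3, the axis proteins HORMAD1 and HORMAD2, and TRIP13, the ATPase that removes the HORMADs once chromosomes have synapsed. Their median log2 fold change was 0.01, with 5 positive and 2 negative estimates (2 and 5 when scaled by library totals alone), and none passed (adjusted p from 0.126 to 0.990 by edgeR). Stag3, the most abundant of them per length at 130 FPKM in both groups, was at 534, 535 and 530 CPM under vehicle and 510, 522 and 568 CPM under inhibitor. Its fold change was measured tightly, with a 95% interval from −6.76% to 7.53%. Smc1b, its partner in the cohesin ring, had 302 ± 12.2 CPM under vehicle and 304 ± 17.9 CPM under inhibitor (SD, n = 3 per group).

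Hormad1 (chromosome 3, 95559677 to 95587671, forward strand) was the axis gene with the smallest p. Its level was 98.9, 90.7 and 101 CPM under vehicle and 115, 121 and 104 CPM under inhibitor. All inhibitor mice were above all controls, with inhibitor mouse 3 closest to them. The log2 fold change of 0.22 (SE 0.066) did not pass (edgeR adjusted p = 0.126), and its corrected value was 0.009. Rec8, the kleisin subunit that holds sister chromatids together until the meiotic divisions, was the axis gene with the lowest estimate. It was at 79.5, 87.3 and 84.7 CPM under vehicle and 80.1, 68.2 and 81.5 CPM under inhibitor, which overlapped (log2 fold change −0.13, edgeR adjusted p = 0.357). Of the rest, Rad21l, the other meiotic kleisin, was the least abundant at 2.28 FPKM, and Hormad2 and Trip13 were at 9.72 and 5.59 FPKM.

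Break formation is carried out by SPO11, the topoisomerase-like enzyme that makes the cut, with MEI1, MEI4 and CCDC36 (also called IHO1) as accessory factors, while PRDM9, a histone methyltransferase with a zinc finger array, chooses the sites. Positive estimates were found for 2 of these 5 genes and negative ones for 3, and none passed by edgeR. Spo11 (chromosome 2, 172977700 to 172993576, forward strand) had the smallest p of the whole set. It was at 63.6, 57.7 and 61.3 CPM under vehicle and 78.9, 75.4 and 67.7 CPM under inhibitor. The groups did not overlap, and the difference was 21.7% of the control level with a 95% interval from 9.99% to 34.7%, yet it missed the threshold over all genes (log2 fold change 0.28, edgeR adjusted p = 0.0928). Unlike Hormad1 and Sycp3, Spo11 kept nearly the same estimate after the length and GC correction (0.27, edgeR adjusted p = 0.123). The correction took the longest listed transcript, of 3619 bases for Spo11, 1511 for Hormad1 and 1169 for Sycp3. Spo11 stood at 67.4 CPM and 46.6 FPKM over the 6 mice, beside 105 CPM and 78.8 FPKM for Hormad1. The deposited FPKM thus rest on a shorter length for Spo11 than 3619 bases. How its corrected value would change with a shorter transcript was not tested. Without the correction, DESeq2 gave Spo11 an adjusted p of 0.0172. The table has 1 entry per gene, so the splice forms of Spo11 that differ between early and late spermatocytes are not separated here.

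Ccdc36, the other break formation gene with a small p, was at 15.4, 15.5 and 15.6 CPM under vehicle and 17.0, 18.6 and 17.9 CPM under inhibitor. Its controls were nearly equal and all inhibitor mice were above them, and its log2 fold change of 0.20 (SE 0.075) did not pass (edgeR adjusted p = 0.196). Its corrected value was 0.18. Mei1 and Prdm9 stood at 2.86 and 1.62 FPKM with overlapping groups. Mei4 was the rarest message of the set, at 0.641, 0.661 and 0.782 CPM under vehicle and 0.209, 0.525 and 0.70 CPM under inhibitor, and at its depth a difference of 1.5-fold was not detectable.

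For strand exchange, DMC1 is the meiosis-specific recombinase, BRCA2 loads it, PSMC3IP (HOP2) and MND1 form a dimer that stimulates it, and MEIOB and SPATA22 form a complex on single-stranded DNA. None of these 6 genes passed (median log2 fold change 0.08, 4 positive, or 3 when scaled by library totals alone). Psmc3ip was at 105, 101 and 102 CPM under vehicle and 122, 119 and 106 CPM under inhibitor. Inhibitor mouse 3 lay next to the controls and the other inhibitor mice clearly above them (log2 fold change 0.17, SE 0.060, edgeR adjusted p = 0.170, and 0.07 after the correction). Exons of Psmc3ip share up to 385 bases with Mlx on the opposite strand, which stood at 6.14 CPM. Dmc1 was at 17.0, 15.2 and 16.0 CPM under vehicle and 17.9, 18.7 and 18.3 CPM under inhibitor, again without overlap (log2 fold change 0.19, SE 0.078, edgeR adjusted p = 0.220, and 0.08 after the correction). Meiob, Mnd1, Spata22 and Brca2 had overlapping groups and log2 fold changes of 0.15, 0.02, −0.07 and −0.07. Exons of Spata22 share up to 334 bases with Gm49340 on the same strand, which has no entry of its own in the deposited counts.

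Crossover maturation depends on the MSH4-MSH5 clamp, the helicase HFM1, the endonuclease subunit MLH3, the ZMM proteins TEX11 and M1AP, and CNTD1, a cyclin-like protein that designates the final sites. This group had 2 positive and 5 negative estimates (median log2 fold change −0.02), and none passed, with adjusted p of 0.441 or more by edgeR. Cntd1, the most abundant at 53.3 FPKM, was at 103, 109 and 109 CPM under vehicle and 112, 118 and 109 CPM under inhibitor. Its groups touched without overlapping (log2 fold change 0.08, and −0.002 after the correction), and up to 1297 bases of its exons are shared with Becn1 on the opposite strand, at 143 CPM. Msh5 was at 13.4, 15.7 and 13.8 CPM under vehicle and 15.6, 15.1 and 16.3 CPM under inhibitor, with overlap and a log2 fold change of 0.13 (edgeR adjusted p = 0.465). The other 5 genes, Msh4, Mlh3, Hfm1, Tex11 and M1ap, had log2 fold changes from −0.12 to −0.02 with overlapping groups.

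In all, the 3 inhibitor mice were above the 3 controls without overlap for 8 of the 32 genes (25.0%), beside 22.9% of all tested genes in either direction, 11.0% in the upward and 11.9% in the downward direction. These 8 were Syce1, Sycp3, Hormad1, Spo11, Ccdc36, Psmc3ip, Dmc1 and Cntd1, and for no gene of the set were all inhibitor mice below all controls. By mouse, the median deviation of the 32 genes from their mean was 0.02, −0.06 and −0.02 in vehicle mice 1 to 3 and 0.03, 0.10 and 0.01 in inhibitor mice 1 to 3 on the log2 scale. Inhibitor mouse 2 was the highest of the 6 mice for 13 genes, and control 2 the lowest for 11. Without inhibitor mouse 3, 4 genes of the set passed (Spo11, Hormad1, Psmc3ip and Sycp3, edgeR adjusted p from 0.00136 to 0.0477), in a comparison in which 14.3% of 16871 genes passed, 8.71% as higher.

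**Figure D3:**
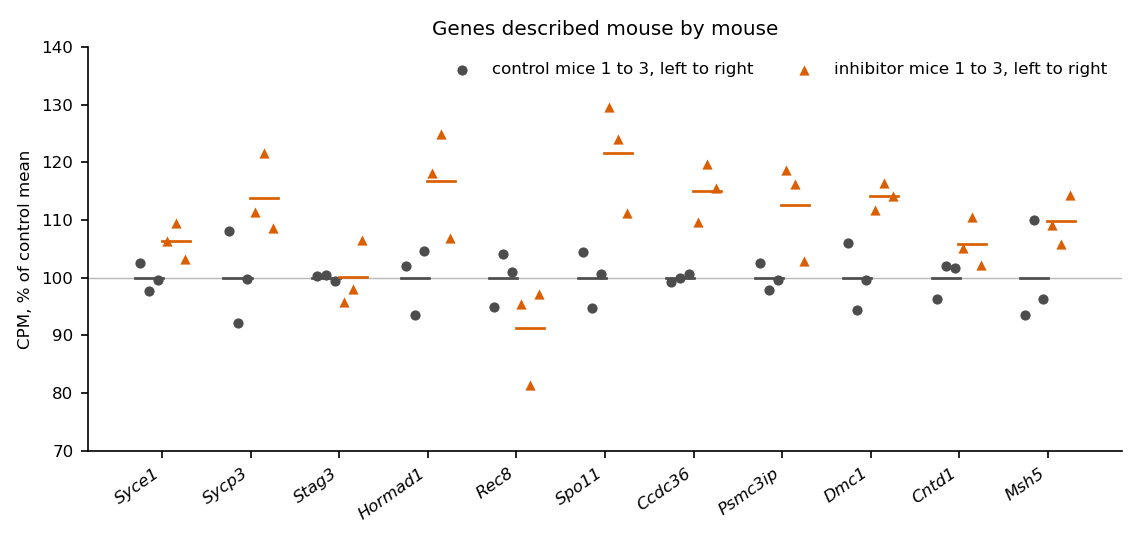
CPM of the 11 genes described mouse by mouse, as a percentage of the control mean, for control mice (circles) and inhibitor mice (triangles) with group means as lines. The genes include those with the smallest p of each role, so separation of the groups is partly fixed by their choice; Spo11 has the largest distance and inhibitor mouse 3 lies lowest of its group for Syce1, Sycp3, Hormad1, Spo11, Psmc3ip and Cntd1.

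The correction for transcript length and GC content moved the set as a whole. Its median went from 0.02 to −0.04, the number of positive estimates from 20 to 11, and the number past an unadjusted p of 0.05 from 6 to 4 (beside 13.5% of all tested genes). Those 4 were Spo11 and Ccdc36, which were past it before, Msh5 at 0.19 and Spata22 at −0.28. No gene passed after adjustment. The transcripts of the set have a median GC content of 44.3% (range 34.3% to 56.7%) and a median length of 2502.5 bases. For all tested genes these medians are 49.6% and 3167 bases. Before the correction, log2 fold change and GC content had a Pearson correlation of −0.0761 over the 32 genes. Length and GC content were not corrected for separately, so their parts in the move cannot be told apart.

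**Figure D4:**
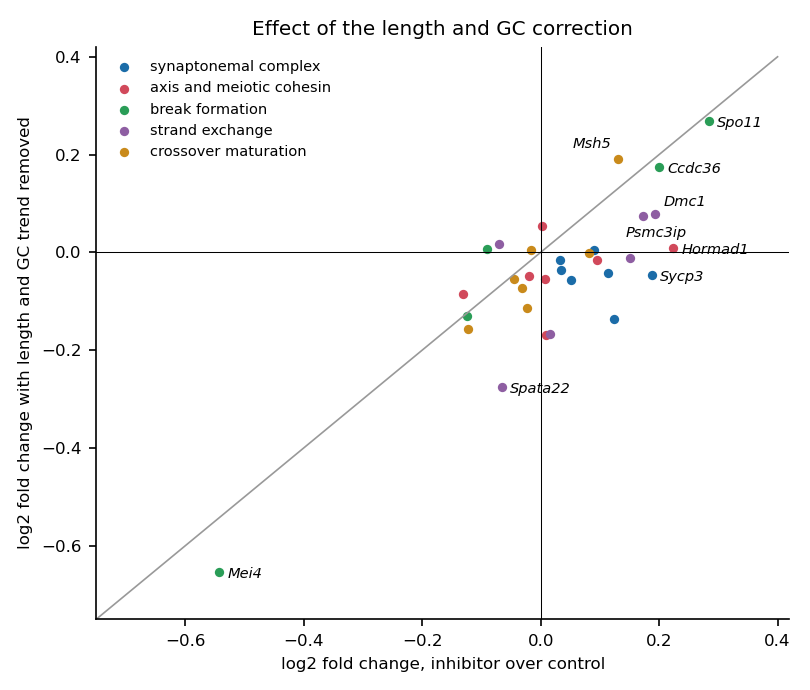
Log2 fold change, inhibitor over control, of the 32 genes without (x axis) and with (y axis) the correction for transcript length and GC content, coloured by role. The grey line marks equal values; Spo11 and Ccdc36 lie near it, whereas Hormad1 and Sycp3 drop from 0.22 and 0.19 to 0.009 and −0.046.

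Some proteins that work as partners had messages at very unequal levels per transcript length, and others at like levels. The 8 pairs compared were chosen after their levels were seen. Psmc3ip exceeded Mnd1, the other subunit of the HOP2-MND1 dimer, by 24.4-fold to 34.0-fold over the 6 mice on the FPKM scale. Syce2 exceeded Tex12, with which it forms filaments, by 6.96-fold to 8.70-fold in FPKM. Other partners were close: Msh4 was between 0.709 and 1.17 times Msh5, Meiob between 0.679 and 0.968 times Spata22, and Smc1b between 0.578 and 0.621 times Stag3. Rec8 stood 13.8-fold to 23.2-fold above Rad21l, and Hormad1 7.14-fold to 9.59-fold above Hormad2. For 6 of the 8 pairs the ratios of the groups overlapped. Of all tested genes taken singly, 22.9% had groups without overlap, and no share over other pairs was computed. The ratio of Sycp3 to Sycp2 did not overlap, at 2.72 ± 0.114 under vehicle and 3.03 ± 0.0733 under inhibitor (SD, n = 3 per group). Nor did that of Meiob to Spata22, at 0.706 ± 0.0335 and 0.826 ± 0.124. Here the highest control, 0.743, and the lowest inhibitor mouse, 0.745, nearly met, and inhibitor mouse 3 stood at 0.968. These ratios are not corrected for length and GC content. After that correction the log2 fold changes of Sycp3 and Sycp2 were −0.046 and −0.015. Those of Meiob and Spata22 were −0.012 (SE 0.092) and −0.275 (SE 0.077), and the difference between these 2 was not tested.

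Other genes of meiosis outside the set were read in the same way. Of 50 further genes in 5 lists (synapsis and telomere attachment, break formation and checkpoint, strand exchange, crossover maturation, and meiotic entry), 44 were in the table and tested, and none passed by edgeR, with 20 positive and 24 negative estimates and a median of −0.02. At an unadjusted p of 0.05, 4 of the 44 were past the threshold as higher and 6 as lower, beside 9.43% and 8.48% of all tested genes. DESeq2 called 3 of them (4.38% of all genes with an adjusted p), Skp1 and Meig1 as higher and Atm as lower, and limma-voom none. Without inhibitor mouse 3, 8 of the 44 passed by edgeR, beside 14.3% of all genes. Atm, the kinase that responds to breaks and limits their number, had the lowest estimate, at 19.9, 18.0 and 22.3 CPM under vehicle and 16.0, 15.0 and 15.3 CPM under inhibitor. Its groups did not overlap (log2 fold change −0.37, SE 0.090, edgeR adjusted p = 0.0928, and −0.295 after the correction). In its list 9 of 10 genes had negative estimates, H2ax, for the histone variant phosphorylated at breaks and on the sex chromosomes, at −0.18 among them. Of the 10, 3 were past an unadjusted p of 0.05, as lower. Over all tested genes 49.0% had positive estimates. In the synapsis, strand exchange, crossover and meiotic entry lists 4 of 9, 8 of 13, 4 of 7 and 3 of 5 genes did. In the synapsis list Skp1, part of the ubiquitin ligase SCF, was at 0.23 (edgeR adjusted p = 0.0972, and 0.11 after the correction) and Fkbp6, a co-chaperone found on the synaptonemal complex, at −0.21. In the strand exchange list Swi5 was at 0.18 and Rpa2, a subunit of the single-strand binding protein RPA, at −0.17. In the crossover list Exo1 and Prr19 were at −0.14 and 0.06. Of the genes of meiotic entry, Stra8, the retinoic acid-induced factor that starts meiosis, was at −0.25 (11.5 ± 1.04 CPM under vehicle and 9.69 ± 1.59 CPM under inhibitor) and Meig1 at 0.28, with overlapping groups for both (SD, n = 3 per group). After the correction Meig1 was at 0.018.

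Markers of the stages on either side were read in the same fit. Of 8 markers of undifferentiated spermatogonia 3 passed as lower (Zbtb16, Lin28a and Sox3, edgeR adjusted p 0.0319, 0.0484 and 0.0319), beside 0.096% of all tested genes. Their list had a median log2 fold change of −0.74. Its summed level was 41.6 to 45.4 CPM under vehicle and 26.0 to 28.7 CPM under inhibitor. These 3 also passed with limma-voom. Limma on log2 FPKM called none of the 8, with 5 past an unadjusted p of 0.05 (2782 and 2775 of 16658 genes were, with 1 and 0.1 added). With mice of the same number taken as a block, only Sox3 passed by edgeR, among 5 of 16658 genes. With the length and GC correction and that block, 0 of the 8 passed. DESeq2 called Zbtb16 and Foxo1, beside 4.38% of the genes with an adjusted p, and gave no adjusted p for Lin28a or Sox3. When control 1, control 2, inhibitor 1 or inhibitor 2 was left out, no gene of the whole table passed by edgeR, these markers and Ret included, and 1918 to 2197 genes had an unadjusted p under 0.05. With control 3 left out, 0 of the 8 markers passed by edgeR. With inhibitor mouse 3 left out, 5 of the 8 passed as lower, beside 14.3% of all genes. None of 7 markers of differentiating spermatogonia, Stra8 among them, passed by edgeR (6 lower, median −0.25). At an unadjusted p of 0.05, 3 were past the threshold as lower and 1, Dmrtb1, as higher, beside 8.48% and 9.43% of all tested genes. The sum of the list was 582 to 588 CPM under vehicle and 597 to 635 CPM under inhibitor, without overlap. With 6 of the 7 estimates lower, this higher sum was not shared by most of the markers. Markers of pachytene and later spermatocytes had 7 of 9 higher estimates and a median of 0.13 (0.07 after the correction). None passed by edgeR. At an unadjusted p of 0.05, 6 of the 9 were past the threshold as higher and 1 as lower, beside 9.43% and 8.48% of all tested genes. DESeq2 called 3 (Pou5f2, Pgk2 and Tbpl1, as higher), beside 4.38% of the genes with an adjusted p. Without inhibitor mouse 3, 5 passed by edgeR, beside 14.3% of all genes, of which Hspa2 was lower and the rest higher. Their sum was 8082 to 8405 CPM under vehicle and 8782 to 8850 CPM under inhibitor. Of the 9 markers of elongating spermatids 8 had higher estimates (median 0.14, or 0.07 after the correction). None passed by edgeR (5 without inhibitor mouse 3, beside 14.3% of all genes). Their sums were 22027 to 22870 CPM under vehicle and 23947 to 25074 CPM under inhibitor. The 32 genes together summed to 2908 to 3060 CPM under vehicle and 3047 to 3164 CPM under inhibitor, with overlap. Sums of macrophage markers were 346 to 351 CPM under vehicle and 387 to 423 CPM under inhibitor, and those of lymphocyte markers 3.99 to 4.52 and 5.21 to 5.95 CPM, both without overlap. Of the 5 macrophage markers 2 had higher and 3 lower estimates (median log2 fold change −0.02), so the higher sum was not shared by most of them. Sums of Sertoli cell markers were 1293 to 1359 CPM under vehicle and 1173 to 1480 CPM under inhibitor, with overlap. Of those 10 markers 9 had lower estimates (median log2 fold change −0.07). None passed by edgeR or DESeq2, and 1 was past an unadjusted p of 0.05. Without inhibitor mouse 3, Sox9 and Clu passed by edgeR as lower, in a comparison in which 14.3% of all genes passed. Whether the shares of these cells play a part in the values of the meiotic genes was not tested.

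**Figure D5:**
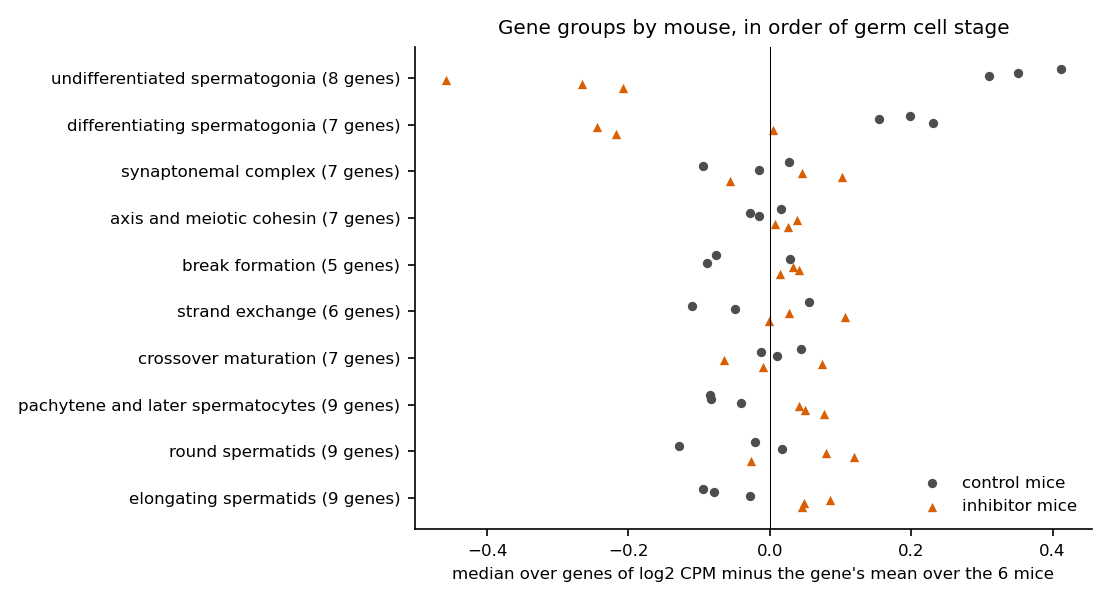
Median over the genes of each group of log2 CPM minus the gene's mean over the 6 mice, for control mice (circles) and inhibitor mice (triangles), from spermatogonial markers through the 5 roles of the meiotic set to spermatid markers. Undifferentiated spermatogonial markers separate widely, with controls between 0.31 and 0.41 and inhibitor mice between −0.46 and −0.21, while the meiotic roles stay between −0.11 and 0.11.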

How the data were processed

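Per the labels' protocols and the series' design text, polyadenylated RNA from 500 ng of total RNA per testis went into directional libraries read from one end over 81 nt. Software named in the submitters' processing notes is TopHat2 2.0.13, cutadapt 1.8 and Cuffdiff 2.2.1, with mm10 as build; which annotation and strand setting were used is not given there. The authors deposited unscaled estimated counts of fragments per gene and library (98.8% of 140166 values whole within 1e-06, all of the 32 genes'), which were rounded. FPKM values, normalized by the authors before deposit, were used for levels and for alternatives on a log2 scale.

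The test was edgeR's (4.0.16, R 4.3.3), run over the whole table: filterByExpr, trimmed-mean scaling, robust quasi-likelihood F-test, two-sided, Benjamini-Hochberg adjustment at 0.05. Fold changes are inhibitor over control, with standard errors from the F statistic and intervals from its degrees of freedom. The length and GC correction fitted a loess surface (span 0.5) per library to log2 CPM deviations over genes with mean log2 CPM above 1, from the longest transcript in GENCODE M21 (99.0% of tested genes), and entered as an offset. Alternatives were RLE or library-total scaling, DESeq2 1.42.0 (no adjusted p for 4523 genes), limma-voom and limma 3.58.1 on log2(FPKM + 1) and log2(FPKM + 0.1), other filters, the replicate block, and each mouse left out. The procedure was tested on simulated data.

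The genes, lists and tests were chosen with earlier results of these data known. Named in full were, per role, the gene with the highest mean FPKM and the 2 with the smallest p; of each list of other meiotic genes, the 2 with the smallest p. Each library is a mouse of its own per the labels, and no 2 libraries of the same group agreed within counting noise. Older symbols were matched through RefSeq synonyms, and 6 of the 50 other meiotic genes were not analysed here. The remaining marker lists had no gene past the threshold by edgeR (DESeq2 called Zpbp2 of the round spermatid and Aif1 of the macrophage list as higher, Dnmt3b of the differentiating spermatogonia as lower, and Prm2 and Akap4 of the elongating spermatids as higher): round spermatids, Leydig, peritubular myoid and endothelial cells, macrophages, lymphocytes, erythroid cells and epididymis had median log2 fold changes of 0.09, −0.06, −0.23, −0.15, −0.02, 0.34, 0.00 and −0.24.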

Additional observations from a re-analysis of the deposited data

How the results depend on the processing

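Fold changes of the 11 genes described mouse by mouse were recomputed under 17 alternatives, giving 187 values, of which 176 kept their direction and their side of the threshold. Under the length and GC offset Sycp3 and Cntd1 turned to −0.046 and −0.002, and with the offset and the replicate block to −0.0497 and −0.0006; Stag3 turned to −0.0288 with library totals alone and ranged from −0.0458 to 0.0334 with single mice left out. Without inhibitor mouse 3 the 4 genes named above passed, and Spo11 passed in DESeq2. The number of genes of the set past the threshold was 0 in the other alternatives, 1 in DESeq2, and 0 to 4 with single mice left out. The median of the set was −0.039 with the offset, −0.0392 with the offset and block, and −0.0046 (without inhibitor 2) to 0.0661 (without inhibitor 3) with single mice left out, beside a spread of 0.0413 (SD) between controls. Over all genes 26 were called (10 higher, 16 lower; 4 and 23 when scaled by library totals alone), against 531 with DESeq2 (364 higher, 167 lower), 14 with limma-voom, 0 and 1 with limma on log2(FPKM + 1) and log2(FPKM + 0.1), where 2782 and 2775 had an unadjusted p under 0.05, 115 without a filter (58 higher, 57 lower), 10 with at least 50 counts in 3 libraries, 5 with the replicate block, 2 with offset and block, and 0 to 2405 with single mice left out (0 without control 1, control 2, inhibitor 1 or inhibitor 2). The mouse numbers share only a number: deviations of same-numbered mice correlated at 0.0619, −0.116 and −0.0203, and the block changed no call within the set. The cause of these shifts was not tested. Depth limits Mei4 most, with 6 to 29 fragments per library.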
